A study of Mus musculus with 8 samples.

Results

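The 10 genes of mouse chromosome 12 described here are Jkamp, Galc, Slc38a6, Tdp1, Serpina11, Tmem229b, Dhrs7, Pygl, Arg2 and Rdh12. They were chosen because their RNA levels differed between libraries labelled Plek2+/+ and Plek2-/- in bone marrow erythroblasts, in stem and progenitor cells, or in both. The choice was made from these same libraries, so the values between labels are given as a description with no test. All 10 were found by symbol among the 23337 genes of the count table, 767 of which were placed on chromosome 12.

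RNA was sequenced from C57BL/6 mice aged 4 months that all carry JAK2V617F on 1 allele, the activating kinase change of polycythemia vera, with either intact Plek2 (Plek2+/+) or a label of Plek2 loss (Plek2-/-). Erythroblasts were taken as TER119-positive marrow cells, and progenitors as Kit-positive cells of the lineage-negative fraction. Each of the 4 groups held 2 libraries, and the labels do not say whether the 2 came from separate mice, so p-values measure only the spread between libraries. The sources used here do not say how the Plek2 allele was made or from which strain its flanking sequence comes. In bulk samples, fewer cells of a type and less RNA per cell cannot be told apart.

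The libraries held 16038035 to 23521726 counts, and values are CPM, counts scaled to a common library total, with totals adjusted by the trimmed mean of M-values (TMM). Plek2 RNA stood at 108 and 129 CPM in Plek2+/+ erythroblasts against 48.2 and 53.1 CPM in those labelled Plek2-/-. In progenitors the order went against the label, with 1.36 and 0.708 CPM in Plek2+/+ and 5.06 and 5.66 CPM in the libraries labelled Plek2-/-. Counts per gene do not show which exons these reads cover, and every statement about Plek2-/- below refers to the label. Sex moved with the label: Xist ranged from 2522 to 3042 CPM in the 4 Plek2+/+ libraries and from 2.13 to 3.60 CPM in the 4 labelled Plek2-/-. The Y-linked gene Ddx3y was at 0.0674 to 0.235 CPM in the former and 117 to 280.3 CPM in the latter. Sex and Plek2 label therefore cannot be told apart in any value below. Of 10 erythroid markers 7 were matched by symbol and were summed at 38128 to 41541 CPM in erythroblasts against 925 to 1001 CPM in progenitors. The 8 stem and progenitor markers were at 427 to 487 CPM in progenitors and 45.3 to 61.4 CPM in erythroblasts.

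Each of the genes is protein-coding, and they do not form a pathway. Jkamp encodes a membrane protein of the endoplasmic reticulum that binds the JNK kinase, and Slc38a6 a member of the SLC38 amino acid carrier family. Galc encodes the lysosomal enzyme that removes galactose from galactosylceramide, whose loss causes Krabbe disease. Tdp1 encodes a DNA repair enzyme that releases topoisomerase I trapped on DNA. Pygl encodes the liver form of glycogen phosphorylase, and Arg2 the mitochondrial arginase, which splits arginine into ornithine and urea. Rdh12 and Dhrs7 belong to the short-chain dehydrogenase and reductase family, and Rdh12 reduces retinal in photoreceptors. Serpina11 belongs to the clade A serpins, mostly secreted protease inhibitors, and Tmem229b encodes a predicted membrane protein.

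The start regions of 6 of the genes are shown because each stands for 1 of the patterns described below: Jkamp and Galc for higher values under the Plek2-/- label in both populations, Serpina11 for lower values in both, Dhrs7 for a difference in erythroblasts, and Pygl and Rdh12 for opposite directions. They are the RefSeq reference sequences on GRCm38.p6, 250 bases before to 50 bases after the annotated start, 5′ to 3′ along the gene. RefSeq windows were found for 9 of the 10 genes. Capitals mark matches, on either strand, to 5 motifs: the GC box core GGGCGG, the CCAAT box, the TATA box TATAAA, the GATA factor core AGATAA and the STAT palindrome TTCNNNGAA.
Jkamp, chr12:72085589-72085888 (plus strand): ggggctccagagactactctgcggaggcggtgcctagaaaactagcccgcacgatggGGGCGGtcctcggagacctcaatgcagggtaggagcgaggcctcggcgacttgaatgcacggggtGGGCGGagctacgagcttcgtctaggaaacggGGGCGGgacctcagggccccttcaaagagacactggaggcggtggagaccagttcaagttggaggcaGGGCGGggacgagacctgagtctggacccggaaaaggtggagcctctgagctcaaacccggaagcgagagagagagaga
Galc, chr12:98259410-98259709 (minus strand): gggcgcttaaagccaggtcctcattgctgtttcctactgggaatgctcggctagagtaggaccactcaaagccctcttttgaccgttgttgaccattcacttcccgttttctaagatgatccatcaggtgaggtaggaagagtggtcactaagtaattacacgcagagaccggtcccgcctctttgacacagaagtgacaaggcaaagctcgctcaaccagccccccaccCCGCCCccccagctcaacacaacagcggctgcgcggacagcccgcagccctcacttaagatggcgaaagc
Serpina11, chr12:103989908-103990207 (minus strand): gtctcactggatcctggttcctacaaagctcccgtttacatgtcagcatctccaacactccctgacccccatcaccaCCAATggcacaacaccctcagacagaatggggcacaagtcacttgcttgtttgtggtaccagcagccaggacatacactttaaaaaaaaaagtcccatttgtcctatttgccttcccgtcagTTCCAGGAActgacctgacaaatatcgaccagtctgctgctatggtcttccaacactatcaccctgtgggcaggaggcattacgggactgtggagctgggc
Dhrs7, chr12:72664779-72665078 (minus strand): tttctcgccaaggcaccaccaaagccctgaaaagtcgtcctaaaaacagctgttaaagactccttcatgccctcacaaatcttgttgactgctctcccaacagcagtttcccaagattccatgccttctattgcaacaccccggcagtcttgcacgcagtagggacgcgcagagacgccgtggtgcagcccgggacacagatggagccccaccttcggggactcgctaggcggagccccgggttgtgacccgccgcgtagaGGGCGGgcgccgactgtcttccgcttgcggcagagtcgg
Pygl, chr12:70227634-70227933 (minus strand): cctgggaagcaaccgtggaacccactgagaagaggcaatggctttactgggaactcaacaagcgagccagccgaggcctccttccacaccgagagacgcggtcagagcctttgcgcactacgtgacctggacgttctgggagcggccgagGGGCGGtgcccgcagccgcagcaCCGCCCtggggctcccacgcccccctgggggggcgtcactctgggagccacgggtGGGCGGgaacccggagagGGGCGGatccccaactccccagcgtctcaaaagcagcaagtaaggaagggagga
Rdh12, chr12:79208663-79208962 (plus strand): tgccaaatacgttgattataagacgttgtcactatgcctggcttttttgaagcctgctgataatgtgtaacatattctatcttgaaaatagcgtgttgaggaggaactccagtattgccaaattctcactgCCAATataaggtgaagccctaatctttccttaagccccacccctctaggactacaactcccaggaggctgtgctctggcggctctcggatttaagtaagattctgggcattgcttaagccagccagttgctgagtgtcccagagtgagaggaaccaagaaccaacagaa

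The motif matches differed among these windows. The GC box core was found 4 times each in the Jkamp and Pygl windows, 1 time each in Galc and Dhrs7, and not in Serpina11 or Rdh12. This motif occurs in 35.7% of 32851 RefSeq start windows of the same length. The CCAAT box occurred in the Serpina11 and Rdh12 windows and in 37.4% of all windows. The STAT palindrome had 1 match in the Serpina11 window and occurs in 8.3% of all windows. The TATA box (13.6% of all windows) and the GATA core (11.2%) had no match in the 6 windows. The GC content ran from 45.7% for Rdh12 to 63.3% for Jkamp and 67.0% for Pygl, beside a median of 52.7% over all windows. The Rdh12 and Serpina11 windows held 5 and 4 CpG dinucleotides, against 21 in Jkamp and 22 each in Pygl and Dhrs7. A match describes the reference letters and does not show that a factor binds there.

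The genes lie in 3 stretches of chromosome 12 (GENCODE vM21 on GRCm38, the same build as the mm10 of the submitters' processing notes). Distances run from gene start to gene start. Plek2 itself runs from 78888691 to 78906964 on the minus strand. Upstream in coordinate order lie Pygl (70190811 to 70231488, minus strand), Jkamp (72085589 to 72101461, plus strand), Dhrs7 (72650353 to 72664909, minus strand) and Slc38a6 (73286779 to 73354049, plus strand), which start 8.68, 6.82, 6.24 and 5.62 Mb from Plek2. Close to Plek2 on the other side lie Tmem229b (78961795 to 79007627, minus strand), Arg2 (79130777 to 79156301, plus strand) and Rdh12 (79208914 to 79222665, plus strand), at 100.7, 224 and 302 kb. The last stretch holds Galc (98202294 to 98259459, minus strand), Tdp1 (99884517 to 99955219, plus strand) and Serpina11 (103980243 to 103989957, minus strand), at 19.4, 21.0 and 25.1 Mb.

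Some of these loci share exonic bases with another annotated gene. The exons of Arg2 share 285 bases, 19.96% of its exonic length, with Vti1b on the opposite strand. Vti1b was nearly level between labels, with log2 fold changes of 0.04 in erythroblasts and 0.10 in progenitors. The exons of Serpina11 share 669 bases, 40.8% of its exonic length, with the same-strand transcript Gm28577, which is not analysed here. Arg2 also shares 116 bases (8.12%) with the antisense transcript Gm48780. Jkamp shares 121 bases (4.49%) with Ccdc175 and Galc 400 bases (2.69%) with Gm47439, both on the opposite strand. Rdh12 neighbours its paralog Rdh11, whose start is 16.6 kb away. No source used here states the strand setting of the counting, so reads in shared bases cannot be assigned to 1 gene, and the values of Arg2, Serpina11, Jkamp and Galc are uncertain to that extent.

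**Figure D1:**
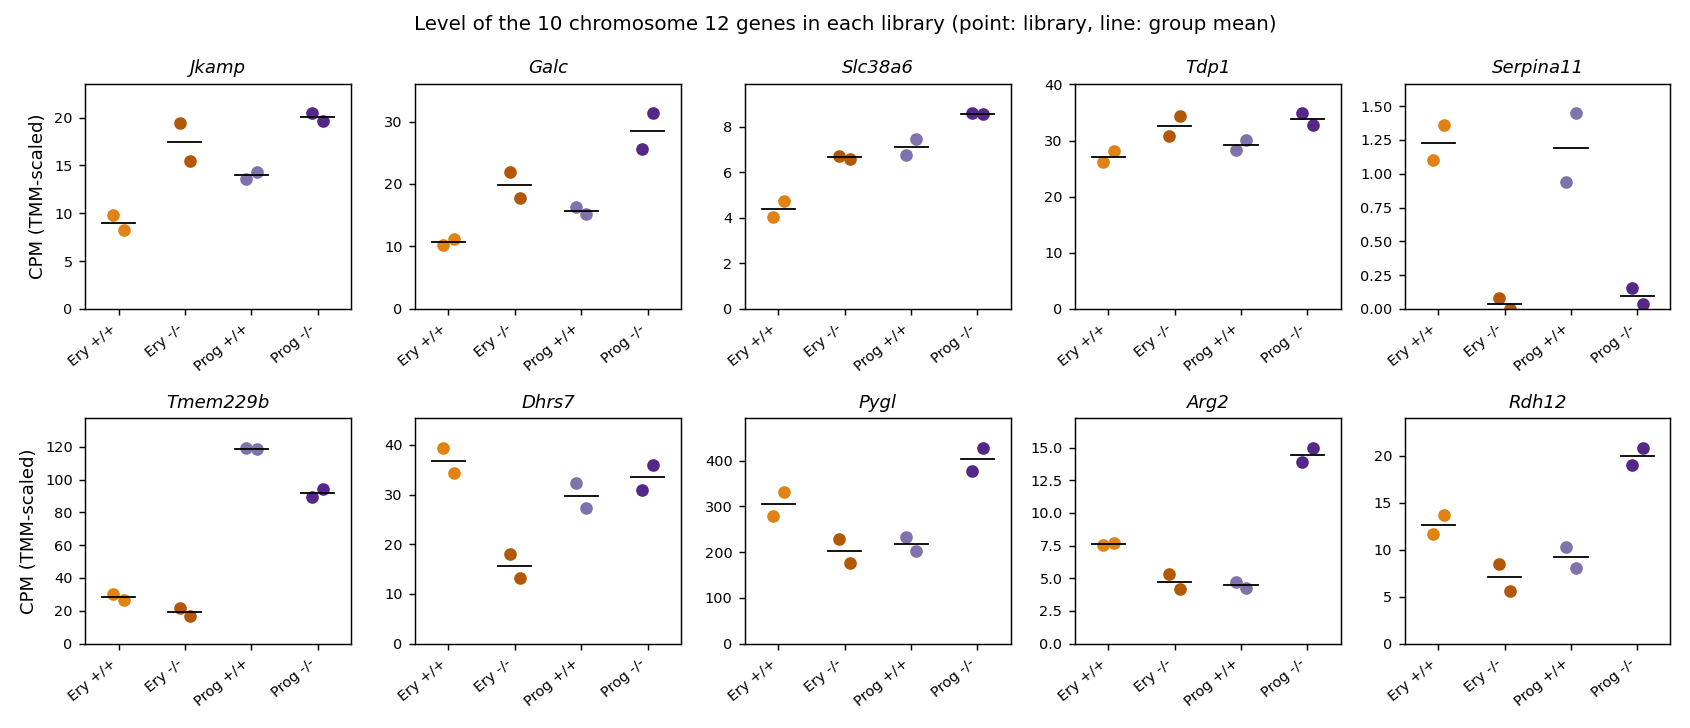
CPM on TMM-scaled totals (y axis, linear, starting at 0) of the 10 genes in each of the 8 libraries, grouped by population and Plek2 label (x axis; Ery, erythroblasts; Prog, progenitors). Points are libraries and lines are means of 2; Serpina11 is at 0.156 CPM or below in each library labelled Plek2-/-, while Arg2 is at 13.9 and 15.0 CPM in progenitors labelled Plek2-/- and at 7.74 CPM or below elsewhere.

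Jkamp, Galc, Slc38a6 and Tdp1 were higher in the libraries labelled Plek2-/- in both populations. Jkamp stood at 9.79 and 8.21 CPM in Plek2+/+ erythroblasts and at 19.4 and 15.5 CPM in those labelled Plek2-/-. In progenitors it stood at 13.6 and 14.4 CPM against 20.5 and 19.6 CPM. The labels did not overlap in either population, and the fitted log2 fold change was 0.96 (SE 0.17, 1.94-fold) in erythroblasts and 0.56 (SE 0.10, 1.48-fold) in progenitors. Galc, the galactosylceramidase gene, had 10.3 and 11.3 CPM in Plek2+/+ erythroblasts against 21.9 and 17.7 CPM. Its progenitor values were 16.3 and 15.1 CPM against 25.6 and 31.4 CPM. The log2 fold change of Galc was 0.89 (SE 0.16) in erythroblasts and 0.90 (SE 0.12) in progenitors, again with no overlap between labels.

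The differences of Slc38a6 and Tdp1 were smaller. The amino acid carrier gene Slc38a6 had 4.04 and 4.75 CPM in Plek2+/+ erythroblasts against 6.73 and 6.59 CPM, and 6.76 and 7.48 CPM in Plek2+/+ progenitors against 8.60 and 8.55 CPM. Its log2 fold change was 0.61 (SE 0.21) in erythroblasts and 0.31 (SE 0.13) in progenitors. The repair gene Tdp1 had 26.1 and 28.1 CPM in Plek2+/+ erythroblasts against 30.9 and 34.3 CPM, and 28.3 and 30.1 CPM in Plek2+/+ progenitors against 34.9 and 32.7 CPM. Its log2 fold change was 0.28 (SE 0.12) in erythroblasts and 0.25 (SE 0.08) in progenitors. Both genes had each library labelled Plek2-/- above each Plek2+/+ library of the same population, but neither is among the genes called in the fit across all genes.

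Serpina11 and Tmem229b were lower under the Plek2-/- label in both populations. Serpina11 had 18 and 20 reads in the Plek2+/+ erythroblasts and 1 and 0 in those labelled Plek2-/-. In progenitors it had 20 and 43 reads against 4 and 1. Scaled to the libraries, the summed reads were 33.6-fold apart in erythroblasts (exact 95% counting interval 5.68 to 1362) and 13.9-fold apart in progenitors (5.65 to 44.3). These intervals cover counting error only, and the level is low in every group, at 1.23 ± 0.181 CPM (SD, n = 2) in Plek2+/+ erythroblasts and 1.19 ± 0.361 CPM (SD, n = 2) in Plek2+/+ progenitors. A count of 0 allows up to 3 counts, which is 0.204 CPM in the erythroblast library that had none. Tmem229b had 30.05 and 26.5 CPM in Plek2+/+ erythroblasts against 21.8 and 17.1 CPM. Its level was several times higher in progenitors, at 119 CPM in both Plek2+/+ libraries against 89.7 and 94.4 CPM. The labels did not overlap, and the log2 fold change was -0.53 (SE 0.14) in erythroblasts and -0.33 (SE 0.06) in progenitors.

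Dhrs7 differed by label in erythroblasts, where it was 2.35-fold lower. It stood at 39.4 and 34.3 CPM in the Plek2+/+ libraries and 18.0 and 13.3 CPM in those labelled Plek2-/- (log2 fold change -1.24, SE 0.15). In progenitors the labels overlapped, with 32.2 and 27.2 CPM in Plek2+/+ and 30.9 and 35.9 CPM in the libraries labelled Plek2-/- (log2 fold change 0.22, SE 0.11). Of the 4 groups 3 lay between 27.2 and 39.4 CPM, and the erythroblasts labelled Plek2-/- stood below them.

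Pygl, Arg2 and Rdh12 were lower under the Plek2-/- label in erythroblasts and higher under it in progenitors. Pygl had 279 and 330.4 CPM in Plek2+/+ erythroblasts against 229 and 177 CPM, and 233 and 202 CPM in Plek2+/+ progenitors against 377 and 428 CPM. Its log2 fold change was -0.58 (SE 0.12) in erythroblasts and 0.93 (SE 0.09) in progenitors. Arg2 had 7.59 and 7.74 CPM in Plek2+/+ erythroblasts against 5.32 and 4.15 CPM, and 4.74 and 4.25 CPM in Plek2+/+ progenitors against 13.9 and 15.0 CPM. The progenitors labelled Plek2-/- were 3.33-fold above the Plek2+/+ progenitors (log2 fold change 1.74, SE 0.13), while the erythroblast difference was -0.69 (SE 0.21). Rdh12 had 11.6 and 13.7 CPM in Plek2+/+ erythroblasts against 8.53 and 5.57 CPM, and 10.3 and 8.06 CPM in Plek2+/+ progenitors against 18.99 and 20.9 CPM. The log2 fold change of Rdh12 was -0.84 (SE 0.21) in erythroblasts and 1.17 (SE 0.14) in progenitors. The libraries of the 2 labels did not overlap for any of these 3 genes in either population.

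Markers of late neutrophils moved with these 3 genes in the same directions. Of 18 listed markers 17 were in the table and tested, none of them at 0 in every library. Their summed level was 20875 to 24108 CPM in Plek2+/+ erythroblasts and 14568 to 16164 CPM in those labelled Plek2-/-. In progenitors it was 4971 to 8134 CPM in Plek2+/+ and 20384 to 27541 CPM under the Plek2-/- label. In the fit across all genes 12 of 17 fell in erythroblasts (median log2 fold change -0.62 beside 0.01 over all genes tested) and 17 of 17 rose in progenitors (median 1.72 beside -0.01). Set against this sum, Pygl had 13.4 and 13.7 CPM per 1000 CPM of neutrophil markers in Plek2+/+ erythroblasts and 14.2 and 12.1 in those labelled Plek2-/-, so the labels overlapped on that scale. Arg2 had 0.363 and 0.321 against 0.329 and 0.285, which also overlapped. Rdh12 had 0.557 and 0.569 against 0.528 and 0.383, which did not. In progenitors Pygl stood at 28.6 and 40.7 per 1000 CPM of neutrophil markers against 18.5 and 15.5, and Rdh12 at 1.27 and 1.62 against 0.932 and 0.757, both lower under the Plek2-/- label on that scale. Arg2 overlapped, at 0.583 and 0.854 against 0.684 and 0.544. The part of neutrophil RNA in the differences of Pygl, Arg2 and Rdh12 was not tested.

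Jkamp, Galc, Slc38a6, Tdp1, Serpina11 and Tmem229b kept 1 direction in both populations while the neutrophil sum went down in erythroblasts and up in progenitors. Per 1000 CPM of neutrophil markers, Tmem229b overlapped between labels in erythroblasts (1.44 and 1.10 against 1.35 and 1.18). In progenitors it was lower under the Plek2-/- label (14.7 and 23.8 against 4.40 and 3.43). Jkamp, Galc, Slc38a6 and Tdp1 were higher in erythroblasts and lower in progenitors on that scale, and Serpina11 was lower in both. Other marker lists moved as well. In erythroblasts 4 of 7 primary granule genes, 5 of 10 B cell genes, 4 of 9 mast cell, basophil and eosinophil genes and 1 of 6 T and NK cell genes fell, and none of these lists had a rise. The summed mast cell, basophil and eosinophil markers were at 2148 to 2552 CPM in Plek2+/+ erythroblasts against 931 to 1376 CPM, and at 2922 to 3650 CPM in Plek2+/+ progenitors against 1391 to 2418 CPM. This list was thus lower under the Plek2-/- label in both populations, as Serpina11 and Tmem229b were. In progenitors 1 of 9 of its genes fell, while 2 of 7 primary granule genes and 1 of 8 megakaryocyte genes rose. The summed macrophage markers were at 1845 to 1848 CPM against 1820 to 2048 CPM in erythroblasts and at 191 to 194 CPM against 270 to 299 CPM in progenitors, where 1 of 12 rose. The part of these cells in the values of the 6 genes was not tested.

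**Figure D2:**
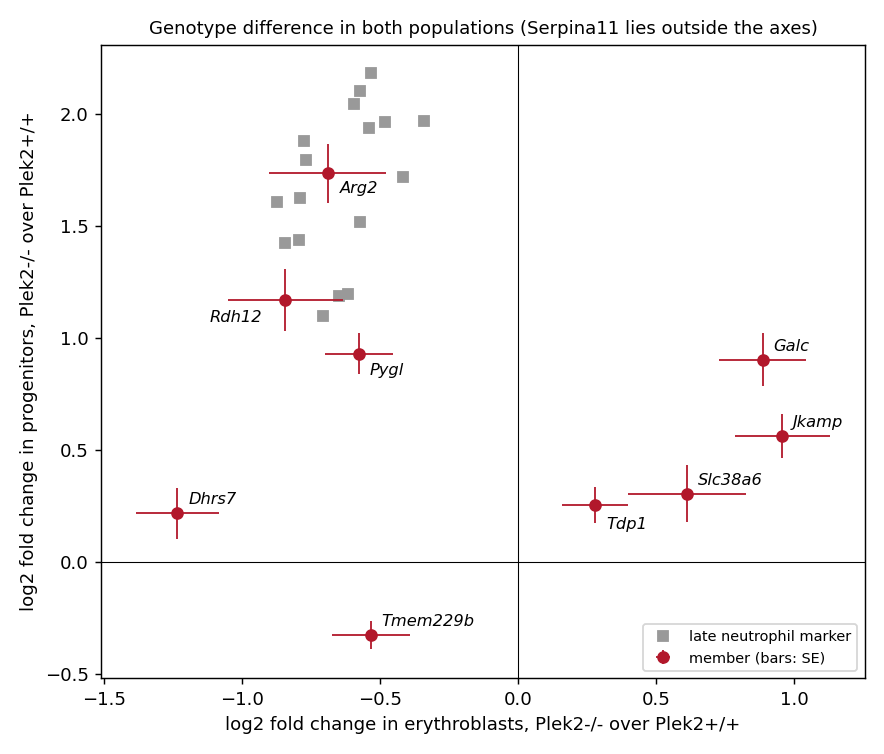
Log2 fold change of Plek2-/- over Plek2+/+ libraries in erythroblasts (x axis) and progenitors (y axis) for 9 of the genes (circles with SE) and 17 late neutrophil markers (squares). Serpina11, fitted at -4.77 and -3.67 on these axes, lies outside them, and these fitted values rest on few reads and ranged from -7.23 to -3.83 and from -5.00 to -2.89 when 1 library was left out; Pygl, Arg2, Rdh12 and Dhrs7 share the upper left quadrant with the neutrophil markers, Dhrs7 at 0.22 in progenitors, and Jkamp, Galc, Slc38a6 and Tdp1 lie at the upper right.

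Read against all genes, the list stands as follows. In erythroblasts edgeR called 348 of 12241 genes (2.84%) at an adjusted p below 0.05, 22 higher (0.18%) and 326 lower (2.66%), and 5 of the 10 were among them (Jkamp and Galc higher, Serpina11, Dhrs7 and Pygl lower). In progenitors it called 646 of 13168 (4.91%), 593 higher (4.5%) and 53 lower (0.402%), and 7 of the 10 were among them (Jkamp, Galc, Pygl, Arg2 and Rdh12 higher, Serpina11 and Tmem229b lower). Since the genes were chosen from these contrasts, nothing follows from these counts. The number called rests on single libraries: leaving out a Plek2+/+ erythroblast library gave 34 (replicate 1) or 25 (replicate 2) calls, and leaving out one labelled Plek2-/- gave 995 or 119. In progenitors the corresponding numbers were 440 or 239, and 2649 or 1739. The calls of single genes rest on them too. Over the 4 erythroblast fits that each leave out 1 library, Dhrs7 was called in 4, Jkamp and Galc in 2, and Pygl and Serpina11 in 1. Over the 4 progenitor fits Galc, Pygl, Arg2 and Rdh12 were called in 4, Serpina11 in 3, and Jkamp and Tmem229b in 2. Libraries of the 2 labels did not overlap for 10 of the 10 genes in erythroblasts and 9 of the 10 in progenitors, beside 45.5% and 52.2% of all genes tested. The labels were apart in the same direction in both populations for 6 of the 10 and in opposite directions for 3, beside 9.7% and 15.5% of 12009 genes tested in both. Nothing follows from these counts of the 10 either, for the same reason. Without Plek2 and the 10 genes, the shares were 10.4% and 13.5% of 385 chromosome 12 genes. Within 10 Mb of Plek2 they were 8.15% and 14.8% of 135. Of the 12009 genes tested in both populations 15 (0.125%) were called in both in the same direction, and 6 of the 15 lie on X or Y. The 3 on chromosome 12 were Galc, Jkamp and Serpina11. A further 129 genes (1.07%) were called in both in opposite directions, 4 of them on chromosome 12, including Pygl and Plek2.

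Across chromosome 12, without Plek2, 38 genes were called in at least 1 population, and 8 of the 10 are among them. In erythroblasts 16 of 401 tested genes of the chromosome were called (3.99%), and 11 of 391 (2.81%) when the 10 genes were left out. In progenitors 28 of 427 were called (6.56%), and 21 of 417 (5.04%) without the 10. Both values without the 10 genes lie near those over all genes, 2.84% and 4.91%. The shares by stretch below rest on few called genes each. In the stretch 19 to 26 Mb after Plek2, which holds Galc, Tdp1 and Serpina11 and whose bounds were set with their positions known, 4 of 38 other genes were called in erythroblasts (10.5%) and 5 of 38 in progenitors (13.2%). In the 10 Mb before Plek2 the other genes were called at 5.08% (3 of 59) and 7.94% (5 of 63). In the stretch 1 to 19 Mb after Plek2 the shares were 1.27% (1 of 79) and 8.43% (7 of 83). This stretch shares the 19 Mb bound and lies between Rdh12 and Galc, so it holds 0 of the 10 by construction. Within 10 Mb of Plek2 the other genes were called at 2.90% (4 of 138) in erythroblasts and 8.22% (12 of 146) in progenitors. Of these 12 progenitor calls 11 were higher, beside 593 of 646 (91.8%) over all genes. Within 1 Mb 0 of 10 and 1 of 10 were called. More than 30 Mb from Plek2 the shares were 1.92% (3 of 156) and 1.75% (3 of 171). The median absolute log2 fold change of the other genes within 10 Mb was 0.12 in both populations, beside 0.13 and 0.12 over all genes.

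**Figure D3:**
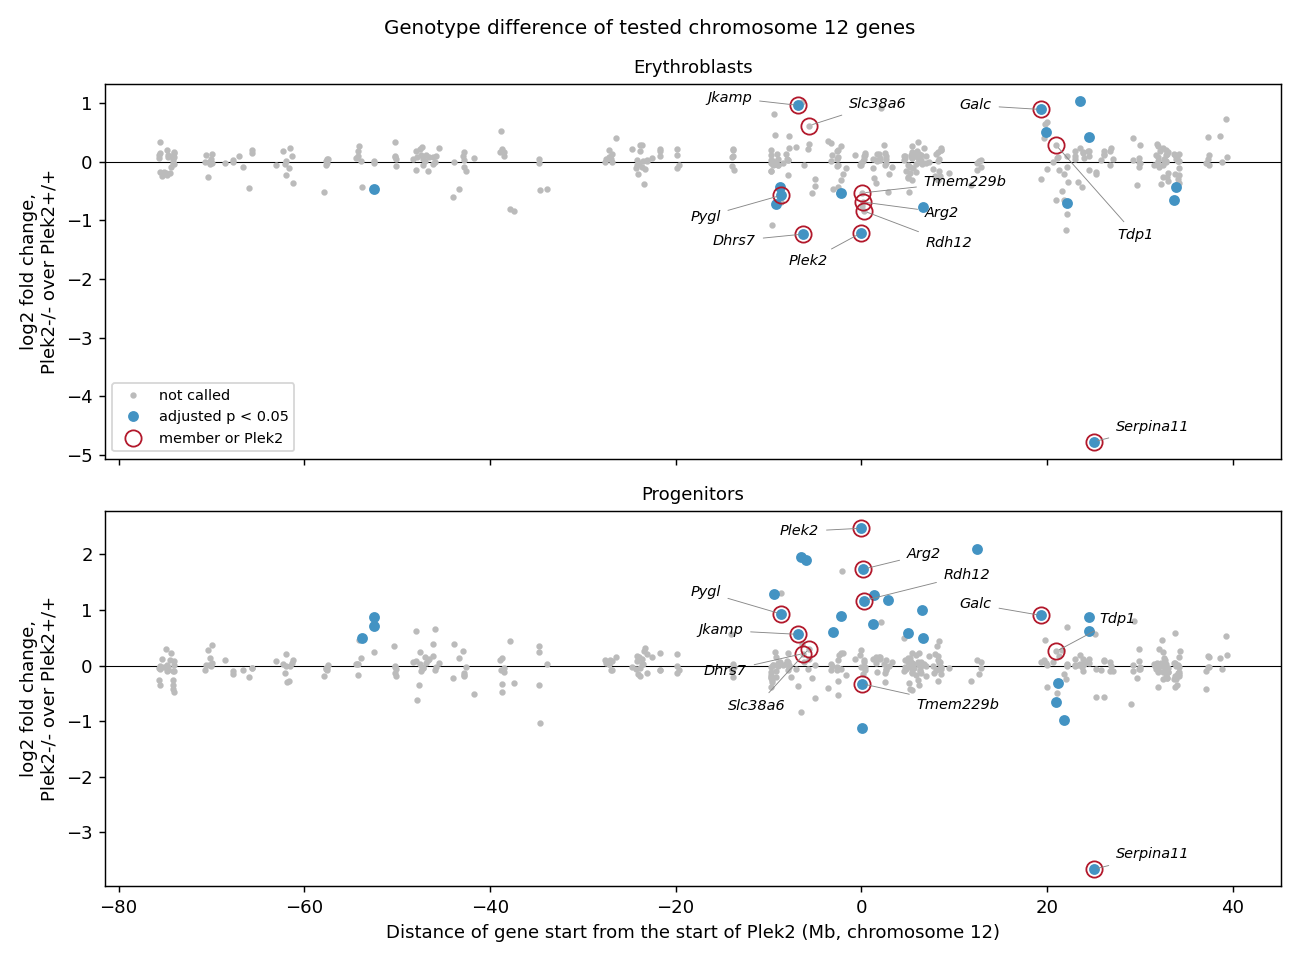
Log2 fold change of Plek2-/- over Plek2+/+ libraries (y axis) against the distance of each tested chromosome 12 gene from Plek2 in Mb (x axis), in erythroblasts (top) and progenitors (bottom). Grey points were not called, blue points had an adjusted p below 0.05, and red circles mark Plek2 and the 10 genes, which fall between 8.68 Mb before and 25.1 Mb after Plek2.

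The nearest tested genes on either side of the 10 and of Plek2 were chosen by position alone. Of the 17 such neighbours tested in erythroblasts 0 were called by edgeR and 0 by DESeq2, 3 had an unadjusted p below 0.05 in edgeR, and they had a median log2 fold change of -0.02. Of the 20 tested in progenitors 1 rose and 2 fell, and DESeq2 called 1, with a median of -0.00075. Over all genes edgeR called 2.84% in erythroblasts and 4.91% in progenitors, there 4.5% higher and 0.402% lower. Gpr65, a receptor gene that starts 9.18 kb from Galc, had log2 fold changes of -0.29 in erythroblasts and 0.07 in progenitors, neither called, where Galc had 0.89 and 0.90. Rdh11, the paralog beside Rdh12, stood at 43.0 ± 3.91 CPM and 45.5 ± 2.10 CPM (SD, n = 2 each) in Plek2+/+ erythroblasts and those labelled Plek2-/-, and its log2 fold change was 0.09 there and 0.06 in progenitors. Eif2s1, the translation factor gene before Plek2, had -0.02 and -0.03.

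Larger values were seen beside several of the genes. F730035M05Rik, a noncoding transcript on the opposite strand, starts 3.65 kb from the GENCODE start of Pygl (70231488). The RefSeq start window of Pygl shown above, at 70227634 to 70227933, lies inside the GENCODE gene, so this distance depends on the start used. F730035M05Rik overlaps the span of Pygl but shares 0 exonic bases with it. The transcript had log2 fold changes of -0.69 in erythroblasts and 1.30 in progenitors, the signs of Pygl, at means of 0.222 to 0.778 CPM. It was not called in either population (edgeR adjusted p = 0.604 and 0.264). Rtn1, beside Jkamp, had -0.84 in progenitors (edgeR adjusted p = 0.129, not called). The start of 2610021K21Rik lies 0.078 kb from that of Tdp1 on the opposite strand. It had a log2 fold change of -0.65 in erythroblasts (not called, edgeR adjusted p = 0.109) and fell by 0.66 in progenitors (edgeR adjusted p = 0.0497), where Tdp1 had 0.28 and 0.25. Plekhh1 starts 21.5 kb from Tmem229b and fell by 1.12 in progenitors (edgeR adjusted p = 0.0294). Its level there was 2.86 ± 0.196 CPM in Plek2+/+ and 1.27 ± 0.147 CPM under the Plek2-/- label (SD, both n = 2). The gene 1810048J11Rik, 129 kb from Dhrs7, had 1.01 in erythroblasts (edgeR adjusted p = 0.0525, not called) beside -1.24 for Dhrs7. Ifi27l2a, an interferon-induced gene 546 kb from Serpina11, rose by 0.88 in progenitors (edgeR adjusted p = 0.0234) and had -0.14 in erythroblasts. Slc38a6 and Trmt5 start 0.069 kb apart on opposite strands, and Trmt5 had 0.30 and 0.12, not called in either population.

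The difference between erythroblasts and progenitors within 1 label did not enter the choice of the genes but uses the same libraries, and it was tested for the genes with 1 direction in both populations. Tmem229b was the gene with the widest gap among the 10. It was 4.20-fold lower in erythroblasts than in progenitors in Plek2+/+ libraries (log2 fold change -2.07, SE 0.11, edgeR adjusted p = 1.35e-09) and 4.74-fold lower in those labelled Plek2-/- (-2.25, SE 0.11, edgeR adjusted p = 8.95e-10). Galc was also lower in erythroblasts under both labels, by 1.46-fold (edgeR adjusted p = 0.00462) and 1.44-fold (edgeR adjusted p = 0.00303). The call of Galc in Plek2+/+ was lost without Plek2+/+ erythroblast replicate 1 (adjusted p = 0.0760). Jkamp and Slc38a6 were lower in Plek2+/+ erythroblasts by 1.55-fold (edgeR adjusted p = 0.00147) and 1.63-fold (edgeR adjusted p = 0.00205). Under the Plek2-/- label their log2 fold changes were -0.20 (edgeR adjusted p = 0.173) and -0.36 (edgeR adjusted p = 0.0503). The gap between the labels for these genes restates the contrasts that chose them and was not tested. Tdp1 had -0.11 and -0.05 and passed the test under neither label (edgeR adjusted p = 0.346 and 0.648), with standard errors of 0.10. These values are on TMM scaling. On library totals alone Tdp1 had -0.92 and -0.84 (edgeR adjusted p = 2.17e-06 and 4.86e-06). Under the Plek2-/- label Jkamp had -0.99 and Slc38a6 -1.15 there (edgeR adjusted p = 2.33e-05 and 1.61e-05). The median over all genes moved by -0.81 in Plek2+/+ and -0.79 under the Plek2-/- label.

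For each of the 10 genes the gap between the 2 labels here repeats, by arithmetic, the gap between populations in the choosing contrasts. Only small differences between fits set them apart. For Arg2, Pygl, Rdh12 and Dhrs7 that gap changes the direction, so their values are given as a description with no test. On TMM scaling Arg2 was 1.71-fold, Pygl 1.40-fold and Rdh12 1.39-fold higher in erythroblasts than in progenitors in Plek2+/+ libraries. Under the Plek2-/- label they were 3.07-fold, 1.98-fold and 2.85-fold lower in erythroblasts. Dhrs7 had a log2 fold change of 0.31 in Plek2+/+ (SE 0.14) and was 2.15-fold lower in erythroblasts under the Plek2-/- label. The higher values in Plek2+/+ depend on scaling: on library totals alone the log2 fold changes there were -0.039 for Arg2, -0.33 for Pygl, -0.35 for Rdh12 and -0.50 for Dhrs7, and the median over all genes moved by -0.81. Serpina11 had 0.01 in Plek2+/+ (SE 0.40, edgeR adjusted p = 0.990), and under the Plek2-/- label, with 0 to 4 reads a library, its fitted value is not read as a fold. In all, 7 of the 10 were called in Plek2+/+ (3 higher, 4 lower), beside 73.8% of 13365 genes (36% higher, 37.8% lower). Under the Plek2-/- label 6 were called (0 higher, 6 lower), beside 76.7% (37.5% higher, 39.2% lower). The 3 higher were Arg2, Pygl and Rdh12, and these 3 and Dhrs7 are among the 6 lower. These counts thus include the genes given with no test, and nothing follows from them. In the settings that kept every library the former count was 7 to 8 and the latter 6 to 9. Dhrs7 was called in Plek2+/+ in several of them. On library totals the former was also 7, but with 0 higher and 7 lower. There Arg2 and Rdh12 were not called, and Pygl was called lower. The median log2 fold change of the 10 was -0.05 and -1.05 (-0.11 and -0.99 without Serpina11), beside -0.06 and -0.07 over all genes.

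**Figure D4:**
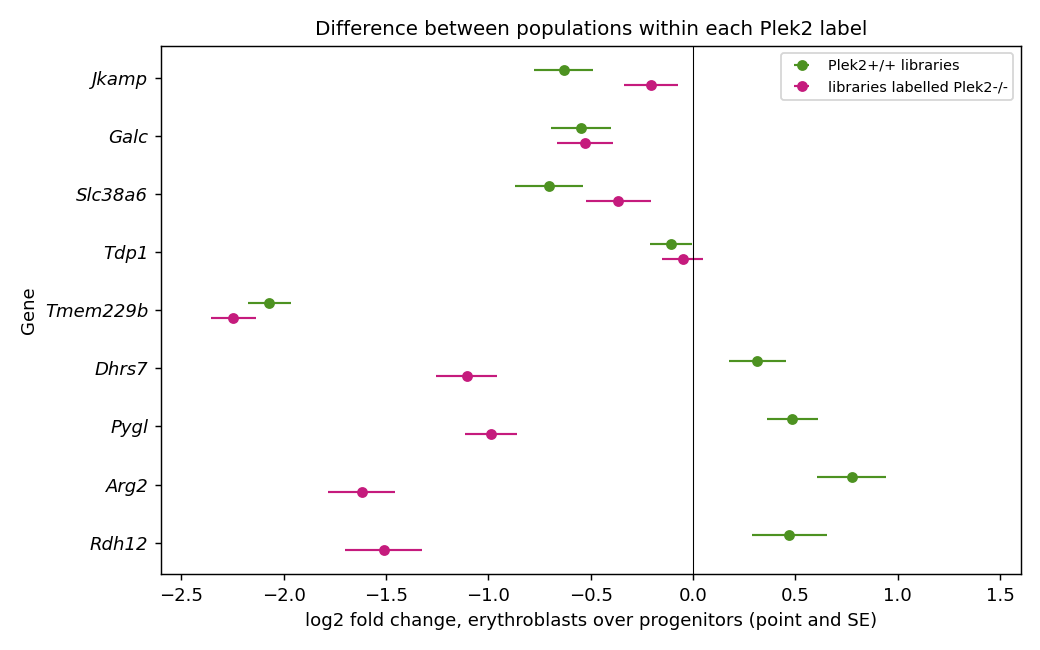
Log2 fold change of erythroblasts over progenitors with its SE (x axis) for 9 of the genes (y axis), in Plek2+/+ libraries (green) and in libraries labelled Plek2-/- (magenta), on TMM scaling. Tmem229b lies at -2.07 and -2.25, while Dhrs7, Pygl, Arg2 and Rdh12 lie right of 0 in Plek2+/+ and left of it under the Plek2-/- label.

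Pathway partners of the genes were taken from fixed lists. Their calls between labels stand beside 2.84% of all genes in erythroblasts and 4.91% in progenitors. Of 16 tested partners of Pygl in glycogen metabolism 1 fell in erythroblasts, and of 18 tested in progenitors 3 rose (median log2 fold changes -0.26 and -0.0011). Gbe1, the glycogen branching enzyme gene, fell 1.49-fold in erythroblasts (edgeR adjusted p = 0.0286) and rose 1.56-fold in progenitors (edgeR adjusted p = 0.00556). Gys1, the glycogen synthase gene of muscle and most tissues, rose 1.44-fold in progenitors (edgeR adjusted p = 0.0258), and Ugp2, which makes UDP-glucose, 1.25-fold (edgeR adjusted p = 0.0332). In erythroblasts Gys1 and Ugp2 had -0.50 and -0.37, not called. Among 16 tested retinoid and short-chain dehydrogenase genes edgeR and DESeq2 each called 0 in erythroblasts, where 2 had an unadjusted p below 0.05, and edgeR called 1 in progenitors. This gene, Dhrs9, a retinol dehydrogenase gene on chromosome 2, had -0.66 in erythroblasts (edgeR adjusted p = 0.0720) and rose 2.28-fold in progenitors (edgeR adjusted p = 0.00190). In progenitors it stood at 14.9 ± 2.49 CPM in Plek2+/+ and 32.8 ± 0.452 CPM under the Plek2-/- label (SD, both n = 2).

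Of the 14 tested lysosomal sphingolipid genes beside Galc edgeR and DESeq2 each called 0 in erythroblasts (4 with an unadjusted p below 0.05), and edgeR called 1 higher in progenitors. Of 13 single-strand break repair genes beside Tdp1 edgeR called 0 in erythroblasts (2 with an unadjusted p below 0.05) and DESeq2 1, and edgeR called 1 higher in progenitors. The lists beside Arg2 (9 tested in either population), Slc38a6 (12), Jkamp (20 and 21) and Serpina11 (2) gave 0 calls by edgeR or DESeq2 in either population. At an unadjusted p below 0.05 edgeR had 2, 1, 2 and 0 of them in erythroblasts and 2, 2, 1 and 0 in progenitors. Odc1, the ornithine decarboxylase gene and the most abundant in the arginine list, lies on chromosome 12 and stood at 359 ± 31.9 CPM and 382 ± 16.8 CPM (SD, n = 2 each) in Plek2+/+ erythroblasts and those labelled Plek2-/-. The amino acid carrier Slc38a2 had 0.12 in erythroblasts and -0.07 in progenitors. Of the clade A serpins 18 of 19 listed were in the table and 10 of these were at 0 in every library, among them the Serpina1 paralogs Serpina1a to Serpina1e. Serpina3g, the most abundant, had -0.21 in erythroblasts and -0.06 in progenitors.

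Levels are compared between genes as CPM per kilobase of exon. Pygl was highest in each of the 4 groups, from 29.5 in erythroblasts labelled Plek2-/- to 58.4 in progenitors labelled Plek2-/-. The lowest was Slc38a6 in Plek2+/+ erythroblasts, at 0.565, and Serpina11 in the other 3 groups, at 0.0239 to 0.729. In Plek2+/+ erythroblasts the order after Pygl was Dhrs7 (10.4), Tmem229b (5.98), Arg2 (5.37), Rdh12 (4.27), Tdp1 (3.39), Jkamp (3.34), Serpina11 (0.751) and Galc (0.724). Tdp1 and Jkamp, and Serpina11 and Galc, overlapped between their libraries. In erythroblasts labelled Plek2-/- Jkamp was next after Pygl, at 6.48, and Dhrs7, Tmem229b and Tdp1 followed at 4.41, 4.12 and 4.08, with overlapping neighbours. In Plek2+/+ progenitors Tmem229b was next after Pygl at 25.1, Arg2 and Rdh12 overlapped at 3.15 and 3.10, and Slc38a6 and Serpina11 overlapped at 0.915 and 0.729. In progenitors labelled Plek2-/- Arg2 took the third place at 10.1 and overlapped with Dhrs7 at 9.44. The lengths are unions of all annotated exons, from 1.43 kb for Arg2 to 14.9 kb for Galc, so a gene with long rarely used exons reads low.

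By profile, the genes were matched to the gene whose centred log2 CPM differed least over the 8 libraries, among 13364 genes. The closest pairs were Pygl with Abtb2 (root mean square difference 0.06 on the log2 scale), Tdp1 with Zbtb37 (0.06), Tmem229b with Gimap6 (0.07) and Rdh12 with Fam101b (0.09). Slc38a6 was nearest to Phlda1 (0.11), Arg2 to Trim30b (0.13), Jkamp to 1700056E22Rik (0.15) and Dhrs7 to Mtap6 (0.16). Serpina11 had no close match, its nearest being the eosinophil peroxidase gene Epx at 0.31. None of these nearest genes lies on chromosome 12. These matches describe likeness over 8 libraries in 4 groups and rest on a pseudocount of 0.5 CPM.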

How the data were processed

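The deposited table of raw counts (whole reads per gene symbol, 23337 genes, 8 libraries) was used as given. Per the submitters' processing notes, STAR 2.5.2a, cutadapt 1.13, DESeq2 1.14.1, HTSeq 0.6.1pl and the mm10 build were used, with no role, annotation or strand setting stated. A further deposited table gives normalized signal. It equalled the counts over 1 size factor per library when checked, and those factors served as an alternative scaling only. Replicates differed beyond counting error (chi-square per degree of freedom 5.65 to 15.7).

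Genotype contrasts were fitted within each population, and population contrasts in 1 fit of all 8 libraries, with edgeR 4.0.16 in R 4.3.3 (TMM, filterByExpr, quasi-likelihood test, Benjamini-Hochberg over all genes tested, calls at an adjusted p below 0.05). DESeq2 1.42.0 and limma-voom (limma 3.58.1) were alternatives. SE is the log2 fold change over the root of the F statistic. The main edgeR fits of the genotype contrasts and of the Plek2+/+ population contrast were tested on simulated data. The Plek2-/- population contrast and the alternative settings were not. The simulated counts had a common spread for all genes and equal numbers of genes raised and lowered. They therefore do not test the scaling shift or the dependence on single libraries. Positive values are higher under the Plek2-/- label, or in erythroblasts. Positions came from GENCODE vM21 (97.7% of genes placed). The genes and lists were chosen with earlier results of these data known. Named genes are Plek2, the 10 genes, their nearest tested neighbours, the most alike gene of each, and from each pathway list up to 3 called genes or the most abundant; a few that the rule names are not reported here. Intervals are exact counting intervals on summed reads and cover counting error only. Reads carry no molecule tags, so copies of a molecule cannot be told from separate molecules, and the intervals may be too narrow.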

Additional observations from a re-analysis of the deposited data

Results flagged for a closer look

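Pygl, Arg2 and Rdh12 are listed because every library labelled Plek2-/- lay below the Plek2+/+ libraries in erythroblasts and above them in progenitors. The erythroblast log2 fold change minus that in progenitors was -2.43 for Arg2, -2.01 for Rdh12 and -1.51 for Pygl. The same libraries compared between populations within each label gave opposite directions for these genes and for Dhrs7, with differences (Plek2+/+ minus Plek2-/-) of 2.39 for Arg2, 1.98 for Rdh12, 1.47 for Pygl and 1.42 for Dhrs7. These are the same differences arranged by label, not a further observation. They were not tested, since the contrasts between labels were used to choose the genes, and the directions in Plek2+/+ are those on TMM scaling.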

How the results depend on the processing

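Between labels, each of the 10 genes kept its sign in every setting tried in both populations, but calls did not all hold when 1 library was left out, and the numbers of calls moved. In erythroblasts, 348 genes were called, against 230 on library totals, 547 with the authors' size factors, 845 with no filter, 579 with a replicate block, and 25 to 995 when 1 library was left out. In progenitors 646 became 1315 with no filter, 813 with a replicate block, and 239 to 2649 when 1 library was left out; 91.8% of calls were higher, against 79.8% on library totals, 81.7% with no filter, and 64.9% and 59.3% without replicate 1 or 2 labelled Plek2-/-. In the population contrasts 48.8% and 48.9% of calls were higher in erythroblasts, against 18.7% and 20.5% on library totals. Of the 10 genes 7 and 6 were called there, with or without a replicate block. The former was 8 with DESeq2 size factors, the authors' size factors, no filter, DESeq2 or limma-voom, where Dhrs7 was also called. On library totals the former was 7 (0 higher, 7 lower) and the latter 9. Leaving out 1 library, the Plek2+/+ log2 fold change ran from 0.29 to 0.66 for Rdh12 and from 0.19 to 0.46 for Dhrs7. The numbers did not pair the samples: deviations of same-numbered libraries correlated at -0.10 to 0.14. Signs in the population contrasts turned on library totals in Plek2+/+ for Arg2 (-0.039), Pygl (-0.33), Rdh12 (-0.35), Dhrs7 (-0.50) and Serpina11 (-0.80), with no filter for Serpina11 (-0.0053), and, leaving out 1 library, for genes not called: the ranges were -0.15 to 0.019 for Tdp1 and -0.24 to 0.38 for Serpina11 in Plek2+/+, and -0.13 to 0.042 for Tdp1 and -4.06 to 0.13 for the fitted value of Serpina11, on 0 to 4 reads a library, under the Plek2-/- label. Apart from library totals, where the construction moves the median gene, the cause was not tested. Reads are few for Serpina11 (0 to 43 a library), and in erythroblasts Slc38a6 had 66 to 97 and Arg2 61 to 124, each with an SE of 0.21.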
